A study of Mus musculus with 10 samples.

Results

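Complexes I to III of the mitochondrial respiratory chain are represented here by 51 nuclear genes of 19505 measured. These are 38 named for complex I, 4 of complex II and 9 of complex III. The 38 include Ndufa4, known to be a subunit of complex IV, and its paralog Ndufa4l2. The members were chosen by name, as the genes whose symbol starts with Ndufa, Ndufb, Ndufc, Ndufs, Ndufv or Uqcr, together with Sdha, Sdhb, Sdhc, Sdhd and Cyc1. Assembly factors (Ndufaf) were left out, and each gene was read from a single probe set. All 51 passed the filter on low values.

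Complex I takes electrons from NADH, complex II takes them from succinate as a step of the citric acid cycle, and both pass them to ubiquinone. Complex III moves them on from ubiquinol to cytochrome c, and complexes I and III pump protons across the inner mitochondrial membrane as they do so. In T cells, mitochondrial respiration is known to support survival of resting and memory cells and to rise, together with glycolysis, upon activation.

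The data are 10 single-colour Affymetrix arrays of total RNA from C57BL/10 mice that had been given CD4+ T cells transduced with GFP or with oncogenic Vav1. Vav1 is a signalling protein of blood cells that acts once the T cell receptor is engaged. The recipients were immunocompromised and were sampled 6 months after the transfer. The groups are GFP spleen (genotype entry WT + GFP, 2 arrays), oncogenic Vav1 spleen (WT + Oncogenic Vav1, 4 arrays), GFP lymph node (2 arrays) and oncogenic Vav1 lymph node (2 arrays), shortened below to GFP spleen, Vav1 spleen, GFP node and Vav1 node. The arrays came from 7 animals, of which 3 gave both tissues: CTL2 among the GFP recipients, and ONCO2 and ONCO3 among the Vav1 recipients. The labels do not give the age of the animals, the mutation in Vav1, the vector or the kind of immune deficiency, and they enter CD4+ T cells as the cell type beside a source that is the whole organ.

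The cell type entry was set against marker genes. T cell markers were present on every array, with a mean over 12 genes of 8.31 to 8.32 on the log2 scale in GFP spleen, 8.63 to 8.93 in Vav1 spleen, 9.20 to 9.23 in GFP node and 7.61 to 8.67 in Vav1 node. B cell markers were also abundant, with means over 12 genes between 9.34 and 11.00, so the arrays do not read CD4+ T cells alone. In such mixed samples, fewer cells of a type and less RNA per cell cannot be told apart. Proliferation genes rose in all 19 of 19 cases in both tissues, and neutrophil genes rose in 10 of 12 in both. Their part in the results below was not tested.

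Levels of the 51 genes were lowest in GFP spleen, highest in GFP node, and in between, close to each other, in Vav1 spleen and Vav1 node. Averaged over the 51 genes, the log2 level was 8.29 and 8.41 on the GFP spleen arrays, between 8.83 and 8.99 on the 4 Vav1 spleen arrays, 9.40 and 9.37 on the GFP node arrays, and 8.94 and 8.86 on the Vav1 node arrays. Only the Vav1 groups overlapped in this average. The GFP spleen mean was the lowest and the GFP node mean the highest of the 4 groups for 49 of 51 genes, an order seen in 11.3% of all 13393 genes tested.

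**Figure D1:**
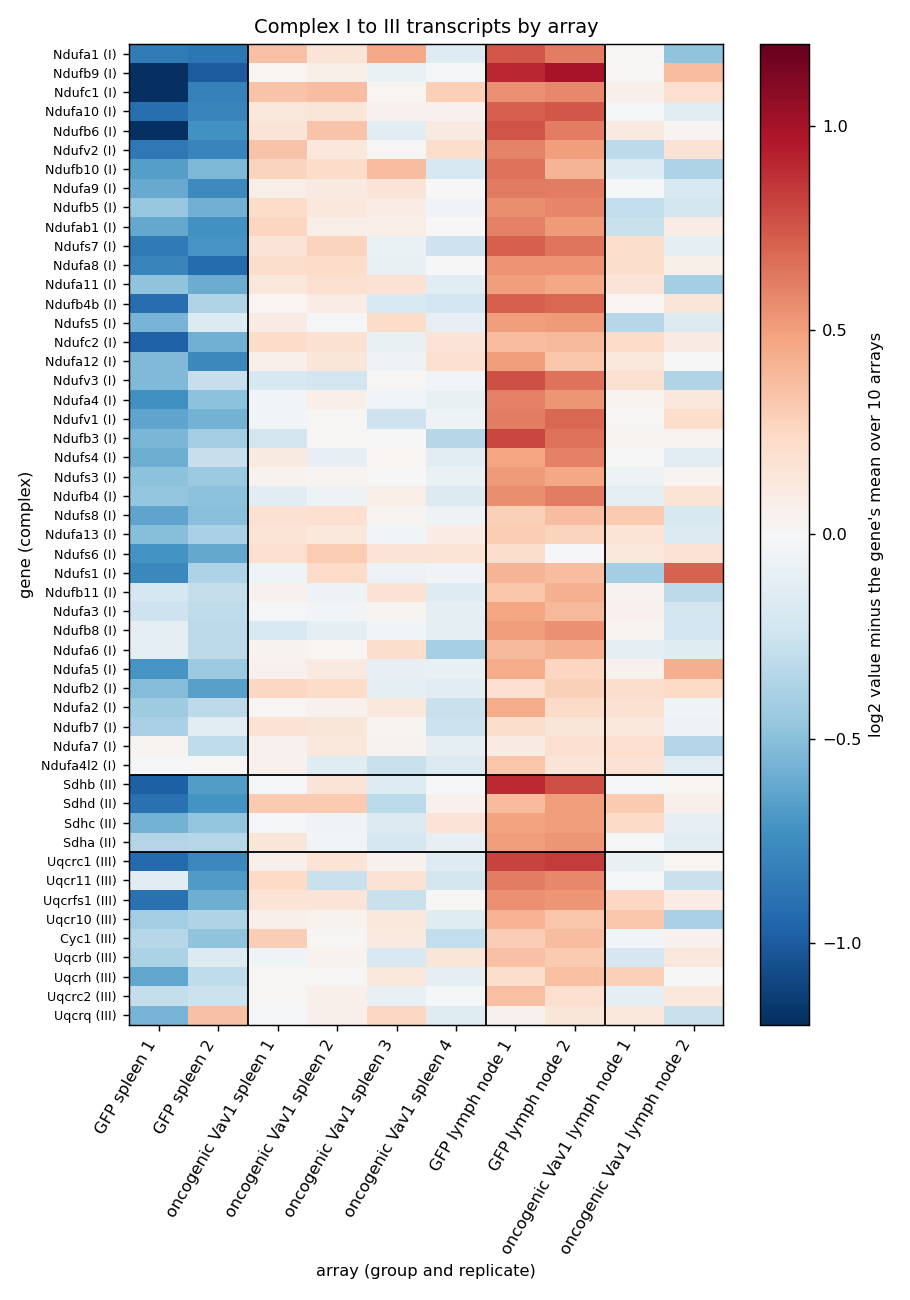
Log2 level of each of the 51 genes (rows, by complex) on each of the 10 arrays (columns), minus the mean of that gene over all arrays. Most rows are blue in the 2 GFP spleen columns, red in the 2 GFP node columns and pale in the 6 Vav1 columns.

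**Figure D2:**
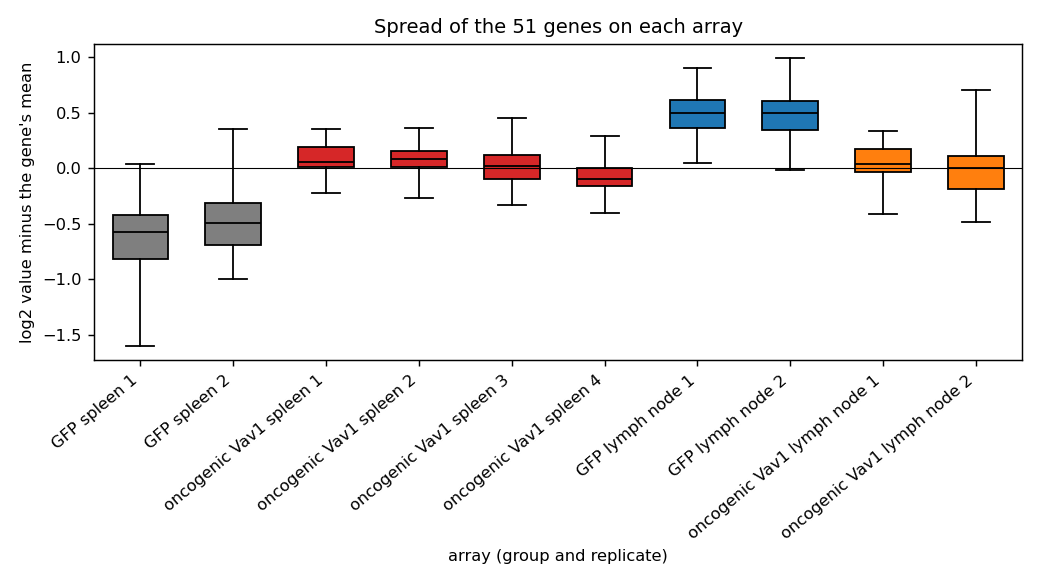
Spread of the 51 genes on each array, as log2 level minus the gene's mean over all arrays; boxes span the quartiles with the median as a line, and whiskers reach the lowest and highest gene. The GFP spleen boxes lie below 0, the GFP node boxes lie above 0, and the Vav1 boxes lie close to 0 in both tissues.

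In the spleen, oncogenic Vav1 was compared with GFP to ask how the oncogene alters the transcripts of the organ. Of the 51 genes, 32 rose and 0 fell (limma, adjusted p under 0.05 over all genes), which is 62.7%. Of all genes tested 26.8% passed, 17.1% upward and 9.77% downward. The median change of the 51 was 0.56 on the log2 scale, with a range from -0.14 to 1.46, and that of all genes was 0.00. Values of the Vav1 arrays lay above both GFP arrays without overlap for 43 of the 51, beside 30.3% of all genes. By complex, 26 of 38 genes rose for complex I, 3 of 4 for complex II and 3 of 9 for complex III. The calls rest in part on the first GFP spleen array (animal CTL2). Without that array, a fit that leaves 1 array in the group, the median change of the 51 was 0.48. Fewer of the 51 and fewer of all genes passed in that fit. The intronic control probe sets, which read background and unspliced RNA, had medians of 5.87 and 5.69 in GFP spleen and 5.43 to 5.55 in Vav1 spleen, and 9 of 51 rose when that median entered the model, beside 6.84% of all genes called in either direction.

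In the lymph node the same comparison ran the other way: 26 of 51 genes fell and 0 rose, which is 51%. Of all genes 18.7% passed, 10.8% downward and 7.87% upward. The median change was -0.51, with a range from -0.91 to 0.06, and that of all genes was -0.02. Vav1 node arrays lay below both GFP node arrays without overlap for 41 of 51, beside 28.8% of all genes. By complex, 22 of 38 genes fell for complex I, 2 of 4 for complex II and 2 of 9 for complex III. These calls rest on few arrays. The median change of the 51 was -0.48 without the first GFP node array and -0.52 without the second. Both fits leave 1 array in that group, and fewer of the 51 and fewer of all genes passed in each. With array weights 6 of 51 fell, beside 9.44% of all genes called in either direction, and the median change was -0.51. Of the 51, 0 passed when the 4 node arrays were fitted alone, where 3.23% of all genes passed.

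A total of 18 genes both rose in the spleen and fell in the lymph node, beside 1.25% of all genes. They were 56.2% of the 32 that rose in spleen and 69.2% of the 26 that fell in the node; over all genes tested the shares were 7.34% of 2288 and 11.6% of 1446. A further 14 genes rose in the spleen and did not pass in the node, 8 fell in the node and did not pass in the spleen, and 11 passed in neither. The spleen and node comparisons share no arrays, but they share the pooled spread and 3 animals: CTL2 on the GFP side, and ONCO2 and ONCO3 on the Vav1 side.

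The difference between the effects of the construct in the 2 tissues was tested as an interaction. It passed for 36 of 51 genes, which is 70.6%, all with the lower effect in the node. Of all genes 8.04% passed, 7.11% with the lower and 0.933% with the higher effect there. The median of this difference was -1.03 over the 51 genes and -0.01 over all genes. It passed for 29 of 38 genes of complex I, 4 of 4 of complex II and 3 of 9 of complex III; whether the complexes differ in this was not tested. With the intronic control median in the model 22 of 51 passed, beside 7.61% of all genes. The median over the 51 was -1.02 without the first GFP node array (CTL1) and -1.03 without the second (CTL2). It was -0.94 without the first GFP spleen array (CTL2). These 3 fits leave 1 array in a group, and fewer of the 51 and fewer of all genes passed in each.

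**Figure D3:**
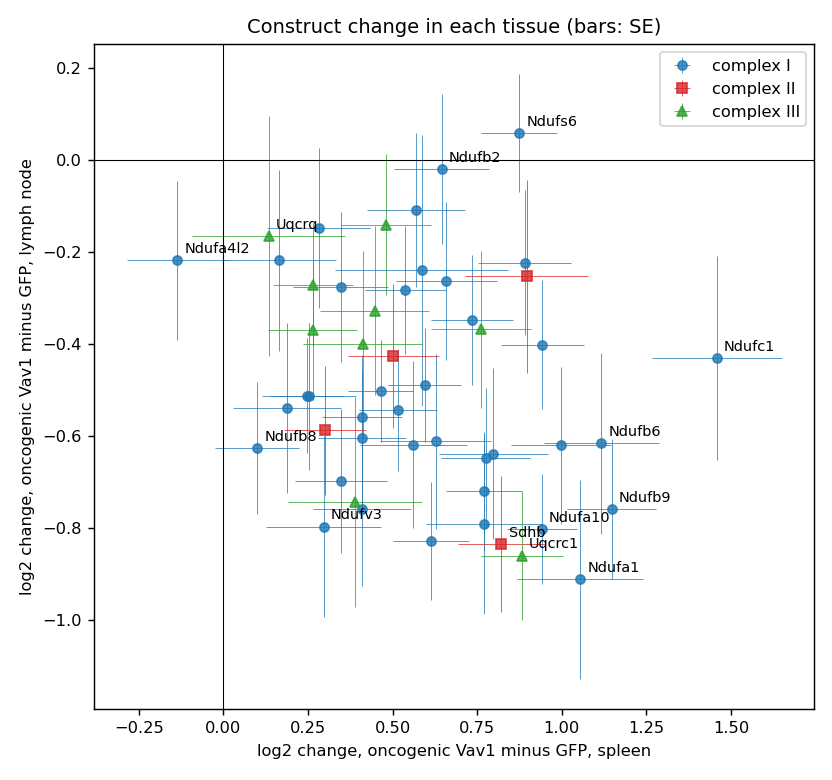
Log2 change with oncogenic Vav1 against GFP in the lymph node (vertical) plotted against that in the spleen (horizontal) for the 51 genes, with standard errors as bars. All but 1 gene lie to the right of 0 and all but 1 lie below 0, with Ndufa4l2 and Ndufs6 as the exceptions.

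GFP node was then compared with GFP spleen, and Vav1 node with Vav1 spleen. In the GFP arrays 46 of 51 genes were higher in the node, which is 90.2%. Of all genes 16.0% passed, 11.6% higher and 4.41% lower. Array values did not overlap for 50 of 51, beside 34.2% of all genes higher without overlap. The median difference was 1.02, with a range from 0.17 to 2.08. This comparison shares its arrays with those of the constructs, so it is not separate support for them. Without the first GFP node array, which leaves 1 array in that group, the median difference was 1.01. Fewer of the 51 and fewer of all genes passed in that fit.

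In the Vav1 arrays none of the 51 genes passed between node and spleen by limma, beside 0.0373% of all genes, and 3 had an unadjusted p under 0.05. The median difference was -0.02, with a range from -0.42 to 0.25. Array values lay wholly above the spleen for 1 gene and wholly below for 4, beside 7.33% and 8.03% of all genes. The 95% confidence intervals of the 51 differences all lay between -0.85 and 0.72, so each interval on its own excluded a difference of 2-fold. They are intervals for single genes, not adjusted for the number of genes, and rest on the spread pooled over all groups. Without the first Vav1 node array (ONCO2), which leaves 1 array in that group, the median difference was -0.05. More of the 51 and more of all genes passed in that fit.

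Transcripts of other tissue differed between the same groups. Markers of brown fat, a tissue rich in mitochondria, had a mean over 11 genes of 7.51 to 7.52 in GFP node, 5.28 to 5.32 in Vav1 node, 5.39 to 5.41 in GFP spleen and 5.09 to 5.18 in Vav1 spleen. Of the 10 tested, 8 fell in the node with oncogenic Vav1. Ucp1, the uncoupling protein that defines brown fat, measured 10.29 to 10.47 in GFP node, 3.69 to 3.94 in Vav1 node, 3.95 to 3.99 in GFP spleen and 3.63 to 3.96 in Vav1 spleen, near background in the last 3. White fat markers, 9 genes, had means of 10.90 to 10.94 in GFP node, 7.63 to 8.82 in Vav1 node, 6.27 to 6.72 in GFP spleen and 5.44 to 5.57 in Vav1 spleen. Both GFP node arrays carry these fat transcripts, so fat content and the construct cannot be told apart in the lymph node comparison, nor fat content and tissue in the GFP comparison. The interaction uses the same GFP node arrays, so this limit holds for it as well. Of the markers tested, 7 of 10 for brown fat and 4 of 9 for white fat passed the interaction, with the lower effect in the node. In the spleen, 2 of 10 brown fat and 3 of 9 white fat markers tested fell with oncogenic Vav1, and the means of both lists were lower without overlap. The 40th percentile of the arrays was also lower there, 5.64 to 5.71 in Vav1 spleen beside 5.80 to 5.84 in GFP spleen. The part of fat content in the spleen result was not tested. Of 11 brown fat markers 7 were near background in each spleen group, and Ucp1 differed by -0.13 (SE 0.15, adjusted p = 0.54) and did not pass.

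Other lists also differed between the constructs. B cell markers fell in 10 of 12 cases in the spleen, with means of 10.94 to 11.00 in GFP spleen and 9.66 to 10.00 in Vav1 spleen. In the node 3 of 12 fell, with means of 9.85 to 9.87 and 9.34 to 9.77. Macrophage genes rose in 5 and fell in 1 of 11 cases in the spleen, with means of 8.49 to 8.50 in GFP spleen and 9.20 to 9.37 in Vav1 spleen; in the node 1 rose and 1 fell. T cell markers followed the order of the 51 genes in part: in the spleen 2 of 12 rose and 1 fell, in the node 5 fell, 6 were higher in GFP node than in GFP spleen, and 7 passed the interaction with the lower effect in the node. Neutrophil means were 6.08 to 6.19 in GFP spleen and 8.68 to 8.92 in Vav1 spleen, and proliferation means were 6.85 to 7.38 and 8.80 to 9.47. Erythroid genes rose in 10 of 10 cases in the node, from means of 5.86 to 6.02 to means of 8.79 to 11.32. In the spleen 0 of 10 passed, with means of 7.25 to 8.60 in GFP spleen and 8.65 to 10.31 in Vav1 spleen. Their part in the changes of the 51 genes was not tested.

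**Figure D4:**
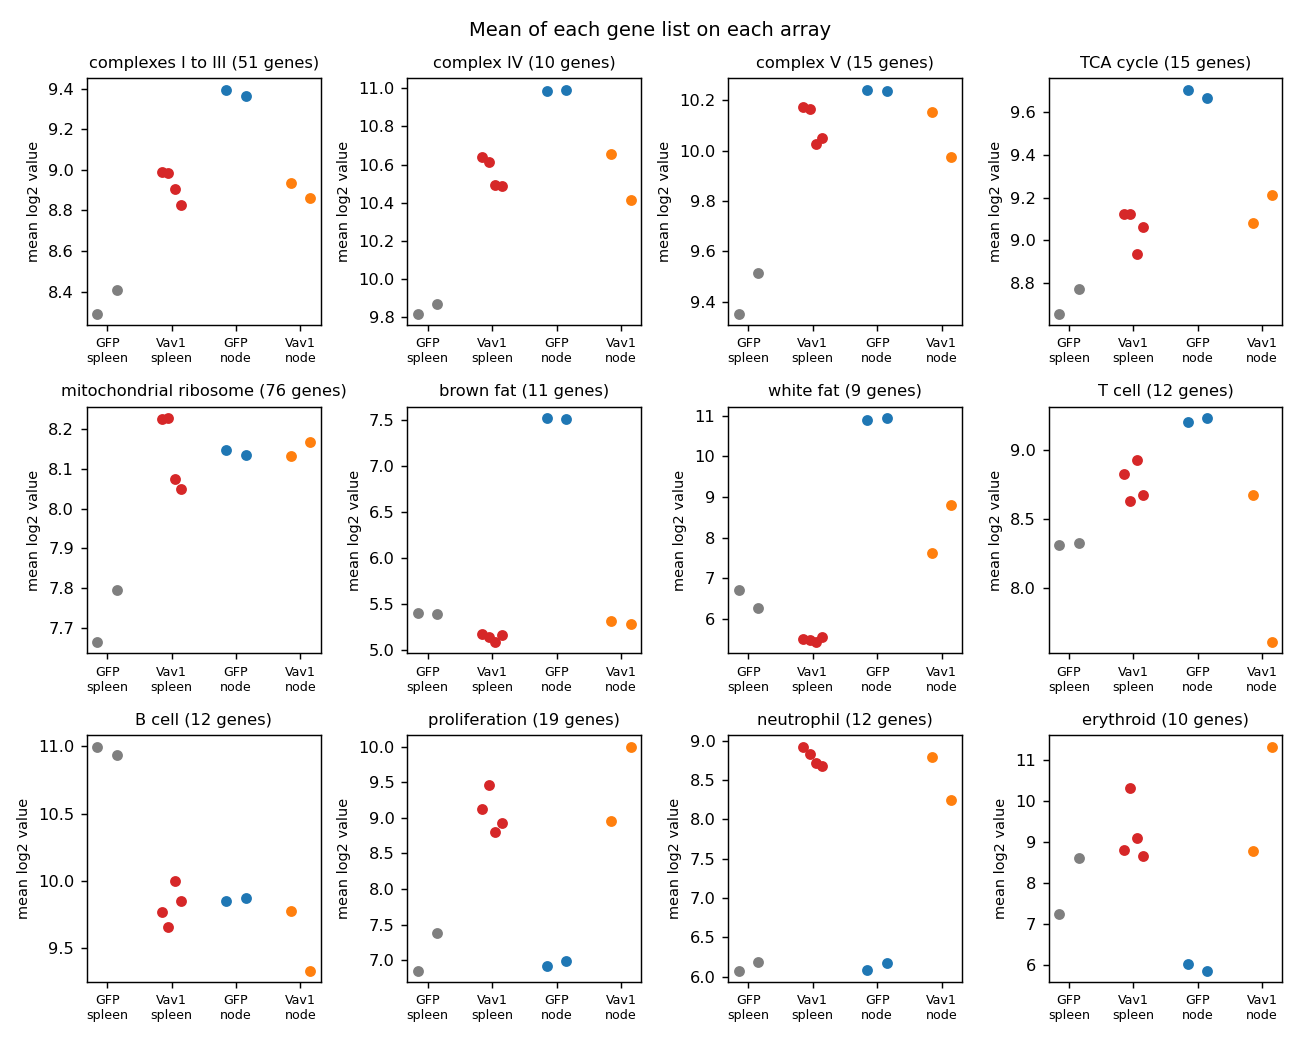
Mean log2 level of each gene list on each array (points), by group, for complexes I to III, related mitochondrial lists and markers of cell types and proliferation; vertical scales differ between panels. The GFP node points are the highest for complexes I to III, complex IV, complex V, the TCA cycle, both fat lists and the T cell list. The proliferation and neutrophil lists are higher in both Vav1 groups than in both GFP groups.

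Among the nuclear core subunits of complex I are those that carry its redox centres. Ndufv1, which holds the flavin that accepts electrons from NADH, measured 9.14 and 9.21 in GFP spleen, 9.74, 9.79, 9.53 and 9.72 in Vav1 spleen, 10.39 and 10.47 in GFP node, and 9.79 and 9.99 in Vav1 node. It rose by 0.52 (SE 0.12, adjusted p = 0.0093) in the spleen and fell in the node with a change of -0.54 (SE 0.13, adjusted p = 0.018). All Vav1 values lay between those of GFP spleen and GFP node. Ndufv2, the iron-sulfur partner of Ndufv1, measured 8.55 and 8.61 in GFP spleen, 9.75, 9.53, 9.42 and 9.61 in Vav1 spleen, 9.99 and 9.90 in GFP node, and 9.08 and 9.57 in Vav1 node. Its change was 1.00 (SE 0.15, adjusted p = 0.0015) in the spleen, a fold of 2 and the greatest of the 6 core subunits, and -0.62 (SE 0.17, adjusted p = 0.03) in the node. The groups of the constructs did not overlap in either tissue.

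Ndufs7 carries the iron-sulfur cluster next to the quinone site. Its levels were 8.24 and 8.38 in GFP spleen, 9.24, 9.35, 9.00 and 8.83 in Vav1 spleen, 9.80 and 9.73 in GFP node, and 9.29 and 8.96 in Vav1 node. The change was 0.80 (SE 0.16, adjusted p = 0.0059) in spleen and -0.64 (SE 0.19, adjusted p = 0.037) in node, with no overlap between constructs. Ndufs3, a core subunit of the same arm, measured 9.72 and 9.77 in GFP spleen, 10.25, 10.24, 10.20 and 10.14 in Vav1 spleen, 10.72 and 10.68 in GFP node, and 10.15 and 10.25 in Vav1 node. It differed by 0.47 (SE 0.10, adjusted p = 0.0067) and -0.50 (SE 0.11, adjusted p = 0.011), the narrowest standard errors of the core subunits.

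Ndufs8 and Ndufs1, both iron-sulfur subunits, departed from this in the node. Ndufs8 measured 8.88 and 9.01 in GFP spleen, 9.69, 9.72, 9.55 and 9.46 in Vav1 spleen, 9.80 and 9.88 in GFP node, and 9.83 and 9.32 in Vav1 node. It rose in the spleen with 0.66 (SE 0.15, adjusted p = 0.01), while in the node the first Vav1 array lay between the GFP arrays and the change of -0.26 (SE 0.17, adjusted p = 0.34) did not pass. Ndufs1 measured 7.55 and 7.95 in GFP spleen, 8.27, 8.54, 8.25 and 8.28 in Vav1 spleen, 8.73 and 8.69 in GFP node, and 7.91 and 9.03 in Vav1 node. The Vav1 node arrays lay on either side of the GFP node arrays, and none of the 5 comparisons passed for Ndufs1, with 0.59 (SE 0.26, adjusted p = 0.11) in spleen and -0.24 (SE 0.29, adjusted p = 0.64) in node. The interaction passed for 5 of 6 core subunits, from -1.63 for Ndufv2 to -0.91 for Ndufs8.

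**Figure D5:**
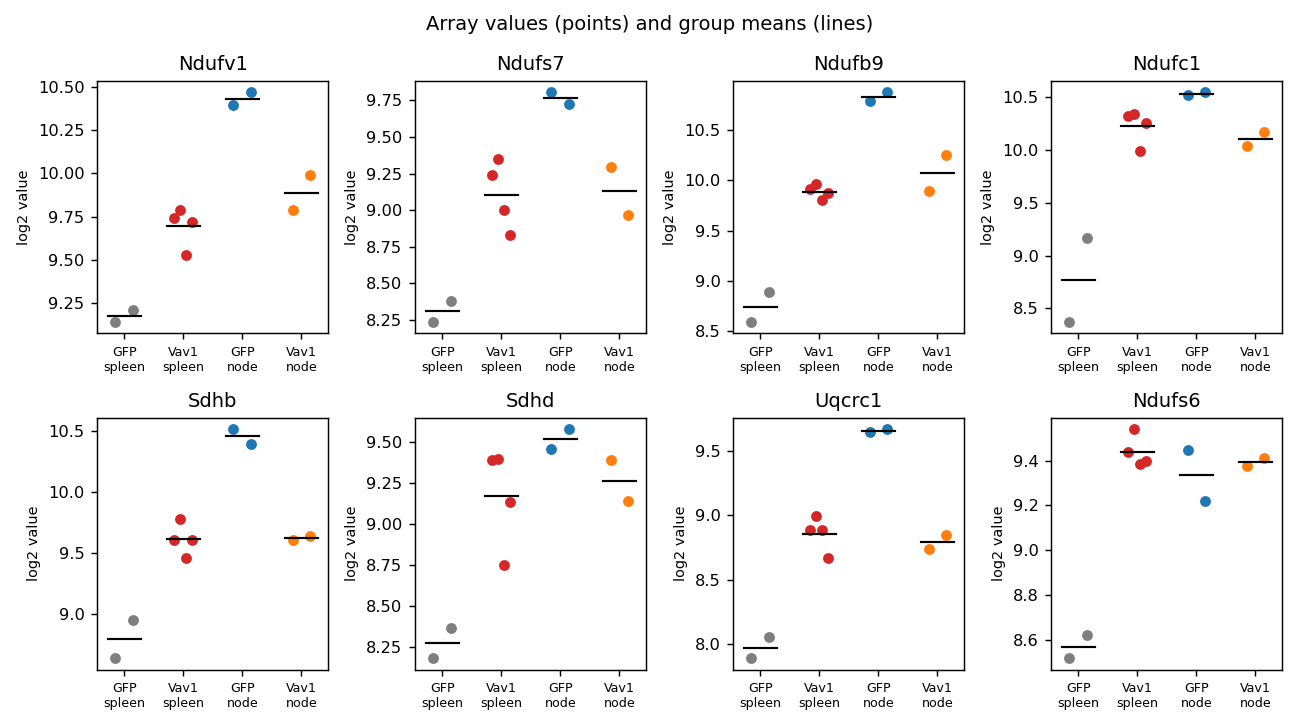
Log2 level of 8 genes on every array (points) with group means (lines); vertical scales differ between panels. In Ndufv1, Ndufs7, Ndufb9, Sdhb and Uqcrc1 the Vav1 points of both tissues lie between GFP spleen and GFP node, whereas for Ndufs6 the points of GFP node lie in or below the range of Vav1 spleen.

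Among 13 accessory subunits named Ndufa, which surround the core, 9 rose in the spleen and 6 fell in the node. Ndufa10, of the membrane arm, measured 8.05 and 8.15 in GFP spleen, 9.08, 9.09, 9.00 and 9.00 in Vav1 spleen, 9.67 and 9.70 in GFP node, and 8.93 and 8.82 in Vav1 node. It rose by 0.94 (SE 0.10, adjusted p = 0.0004), a fold of 1.92, and fell in the node with -0.80 (SE 0.12, adjusted p = 0.0012). The 4 Vav1 spleen values lie close together, and no groups of the constructs overlap. Ndufa1, a small membrane subunit encoded on the X chromosome, measured 7.26 and 7.22 in GFP spleen, 8.44, 8.25, 8.55 and 7.94 in Vav1 spleen, 8.83 and 8.71 in GFP node, and 8.10 and 7.61 in Vav1 node. It had the largest fall in the node, -0.91 (SE 0.22, adjusted p = 0.015), and the largest interaction of the 51, -1.96 (SE 0.29, adjusted p = 0.0026). Both GFP spleen values lay below every other array, while the Vav1 node arrays differed from each other.

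Ndufa9, a subunit at the junction of both arms, measured 8.05 and 7.89 in GFP spleen, 8.73, 8.76, 8.81 and 8.65 in Vav1 spleen, 9.28 and 9.27 in GFP node, and 8.64 and 8.47 in Vav1 node. Ndufab1, the mitochondrial acyl carrier protein, which also serves fatty acid synthesis, measured 8.34 and 8.23 in GFP spleen, 9.22, 9.03, 9.04 and 8.97 in Vav1 spleen, 9.56 and 9.47 in GFP node, and 8.69 and 9.04 in Vav1 node. Ndufa11, of the membrane arm, measured 7.55 and 7.44 in GFP spleen, 8.17, 8.22, 8.21 and 7.89 in Vav1 spleen, 8.53 and 8.50 in GFP node, and 8.18 and 7.63 in Vav1 node. All 3 rose in the spleen, with 0.77 (SE 0.11, adjusted p = 0.0013), 0.77 (SE 0.13, adjusted p = 0.0027) and 0.63 (SE 0.16, adjusted p = 0.019) in that order. All 3 fell in the node, with changes of -0.72 (SE 0.13, adjusted p = 0.0035), -0.65 (SE 0.15, adjusted p = 0.014) and -0.61 (SE 0.19, adjusted p = 0.048).

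Ndufa8, Ndufa12 and Ndufa13 rose in the spleen and did not pass in the node. Ndufa8, on the intermembrane space side, measured 8.97 and 8.83 in GFP spleen, 9.97, 9.97, 9.67 and 9.76 in Vav1 spleen, 10.30 and 10.30 in GFP node, and 9.97 and 9.83 in Vav1 node. Ndufa12, of the peripheral arm, measured 9.52 and 9.27 in GFP spleen, 10.11, 10.19, 9.99 and 10.24 in Vav1 spleen, 10.55 and 10.38 in GFP node, and 10.18 and 10.05 in Vav1 node. Ndufa13, also known as GRIM-19, measured 9.17 and 9.29 in GFP spleen, 9.84, 9.80, 9.65 and 9.77 in Vav1 spleen, 9.98 and 9.94 in GFP node, and 9.84 and 9.52 in Vav1 node. Their changes were 0.94 (SE 0.12, adjusted p = 0.00082), 0.74 (SE 0.12, adjusted p = 0.0024) and 0.54 (SE 0.12, adjusted p = 0.0095) in the spleen and -0.40 (SE 0.14, adjusted p = 0.075), -0.35 (SE 0.14, adjusted p = 0.12) and -0.28 (SE 0.14, adjusted p = 0.2) in the node, where the constructs still did not overlap.

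Ndufa3, a small membrane subunit, measured 10.32 and 10.26 in GFP spleen, 10.54, 10.53, 10.60 and 10.47 in Vav1 spleen, 11.04 and 10.95 in GFP node, and 10.62 and 10.35 in Vav1 node. It fell in the node with -0.51 (SE 0.12, adjusted p = 0.017), and its spleen change of 0.25 (SE 0.11, adjusted p = 0.11) did not pass. Of the remaining Ndufa subunits, Ndufa5 rose in the spleen by 0.57 and differed by -0.11 in the node without passing. Ndufa2, Ndufa6 and Ndufa7 passed in neither tissue, with 0.35, 0.19 and 0.16 in the spleen and -0.28, -0.54 and -0.22 in the node.

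Ndufa4 and Ndufa4l2 carry the family name, but Ndufa4 is known to be a subunit of complex IV. Ndufa4 measured 9.79 and 10.04 in GFP spleen, 10.50, 10.60, 10.50 and 10.44 in Vav1 spleen, 11.13 and 11.06 in GFP node, and 10.57 and 10.65 in Vav1 node. It rose by 0.60 (SE 0.11, adjusted p = 0.0037) in the spleen and fell in the node with -0.49 (SE 0.12, adjusted p = 0.021), without overlap. Ndufa4l2, a paralog known to be induced by hypoxia, measured 5.83 and 5.86 in GFP spleen, 5.90, 5.70, 5.57 and 5.67 in Vav1 spleen, 6.18 and 6.00 in GFP node, and 6.02 and 5.72 in Vav1 node. These levels lie close to the 40th percentile of the arrays, between 5.64 and 5.84, and Ndufa4l2 passed in no comparison, with -0.14 in spleen, the only spleen change below 0, and -0.22 in node.

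Among 11 Ndufb subunits, which belong to the membrane arm, 7 rose in the spleen and 8 fell in the node. Ndufb9 measured 8.59 and 8.89 in GFP spleen, 9.91, 9.96, 9.81 and 9.87 in Vav1 spleen, 10.79 and 10.88 in GFP node, and 9.90 and 10.25 in Vav1 node. It rose by 1.15 (SE 0.13, adjusted p = 0.00048) in the spleen, fell in the node with -0.76 (SE 0.15, adjusted p = 0.0067), and had the largest difference of the 51 between GFP node and GFP spleen, 2.08 (SE 0.15, adjusted p = 1.2e-05). The Vav1 values of both tissues fill the gap between the GFP groups without touching either. Ndufb5 measured 8.64 and 8.52 in GFP spleen, 9.31, 9.22, 9.18 and 9.05 in Vav1 spleen, 9.65 and 9.68 in GFP node, and 8.80 and 8.88 in Vav1 node. Its changes were 0.61 (SE 0.11, adjusted p = 0.0038) and -0.83 (SE 0.13, adjusted p = 0.0016), again with no overlap between constructs.

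Ndufb10 measured 6.73 and 6.85 in GFP spleen, 7.66, 7.61, 7.77 and 7.20 in Vav1 spleen, 8.05 and 7.80 in GFP node, and 7.24 and 7.02 in Vav1 node. Ndufb4 measured 9.47 and 9.44 in GFP spleen, 9.80, 9.88, 10.01 and 9.77 in Vav1 spleen, 10.49 and 10.55 in GFP node, and 9.82 and 10.10 in Vav1 node. Ndufb4b, a near copy of Ndufb4 whose probes may read transcripts of both genes, measured 9.16 and 9.71 in GFP spleen, 10.09, 10.16, 9.89 and 9.84 in Vav1 spleen, 10.79 and 10.76 in GFP node, and 10.10 and 10.22 in Vav1 node. All 3 rose in spleen, with 0.77 (SE 0.17, adjusted p = 0.0089), 0.41 (SE 0.12, adjusted p = 0.028) and 0.56 (SE 0.16, adjusted p = 0.025), and fell in node, with -0.79 (SE 0.20, adjusted p = 0.019), -0.56 (SE 0.14, adjusted p = 0.017) and -0.62 (SE 0.18, adjusted p = 0.038); Ndufb4 and Ndufb4b are uncertain as separate results.

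Ndufb6 measured 7.07 and 7.61 in GFP spleen, 8.49, 8.68, 8.21 and 8.44 in Vav1 spleen, 9.09 and 8.95 in GFP node, and 8.45 and 8.37 in Vav1 node. It rose by 1.12 (SE 0.17, adjusted p = 0.0017) in the spleen, while its node change of -0.62 (SE 0.20, adjusted p = 0.054) missed the threshold although the arrays did not overlap. Ndufb3 measured 7.08 and 7.21 in GFP spleen, 7.41, 7.65, 7.63 and 7.29 in Vav1 spleen, 8.44 and 8.29 in GFP node, and 7.67 and 7.66 in Vav1 node. Ndufb8 measured 7.87 and 7.67 in GFP spleen, 7.79, 7.87, 7.95 and 7.87 in Vav1 spleen, 8.48 and 8.53 in GFP node, and 8.01 and 7.75 in Vav1 node. Both fell in the node, Ndufb3 with -0.70 (SE 0.16, adjusted p = 0.012) and Ndufb8 with -0.63 (SE 0.14, adjusted p = 0.013), and neither passed in the spleen, with 0.35 and 0.10. Ndufb8 overlapped between the constructs in the spleen and Ndufb3 did not. Of the other 3, Ndufb11 fell in the node by 0.51 on the log2 scale, Ndufb2 rose in the spleen by 0.65, and Ndufb7 passed in neither tissue.

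The 6 accessory subunits named Ndufc, Ndufs and Ndufv all passed the interaction. Ndufc1, of the membrane arm, measured 8.38 and 9.16 in GFP spleen, 10.32, 10.34, 9.99 and 10.26 in Vav1 spleen, 10.52 and 10.54 in GFP node, and 10.03 and 10.17 in Vav1 node. Its rise in the spleen, 1.46 (SE 0.19, adjusted p = 0.0009), was the largest of the 51, a fold of 2.75. The GFP spleen arrays differ from each other by more than the Vav1 spleen arrays do, and both lie below the Vav1 spleen values. In the node the change of -0.43 (SE 0.22, adjusted p = 0.22) did not pass. Ndufc2, its neighbour in the complex, measured 9.62 and 10.02 in GFP spleen, 10.81, 10.78, 10.50 and 10.75 in Vav1 spleen, 10.97 and 10.98 in GFP node, and 10.81 and 10.69 in Vav1 node. It rose by 0.89 (SE 0.14, adjusted p = 0.0017) in the spleen and differed by -0.22 (SE 0.16, adjusted p = 0.38) in the node.

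Ndufs4, whose loss in mice gives a model of Leigh syndrome, measured 8.01 and 8.32 in GFP spleen, 8.71, 8.50, 8.62 and 8.47 in Vav1 spleen, 9.08 and 9.20 in GFP node, and 8.60 and 8.47 in Vav1 node. It rose by 0.41 (SE 0.13, adjusted p = 0.041) in the spleen and fell in the node with -0.60 (SE 0.15, adjusted p = 0.019). Ndufs6, a zinc-binding subunit, measured 8.52 and 8.62 in GFP spleen, 9.44, 9.54, 9.39 and 9.40 in Vav1 spleen, 9.45 and 9.22 in GFP node, and 9.37 and 9.41 in Vav1 node. It rose by 0.87 (SE 0.11, adjusted p = 0.00077) in the spleen, and its node change of 0.06 (SE 0.13, adjusted p = 0.8) was the only one above 0. The Vav1 node values of Ndufs6 lay between the GFP node values, and only the GFP spleen arrays stood apart.

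Ndufs5, on the intermembrane space side, measured 7.65 and 8.04 in GFP spleen, 8.30, 8.19, 8.42 and 8.10 in Vav1 spleen, 8.70 and 8.72 in GFP node, and 7.86 and 8.03 in Vav1 node. Ndufv3, an accessory subunit of the NADH-oxidising module, measured 6.17 and 6.42 in GFP spleen, 6.50, 6.47, 6.71 and 6.67 in Vav1 spleen, 7.47 and 7.35 in GFP node, and 6.89 and 6.34 in Vav1 node. Both fell in the node, with -0.76 (SE 0.17, adjusted p = 0.011) and -0.80 (SE 0.20, adjusted p = 0.018), and did not pass in the spleen, with 0.41 (SE 0.14, adjusted p = 0.059) and 0.30 (SE 0.17, adjusted p = 0.21).

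Complex II has 4 subunits, all nuclear, and all 4 passed the interaction. Sdhb, the iron-sulfur subunit, measured 8.64 and 8.94 in GFP spleen, 9.61, 9.78, 9.46 and 9.60 in Vav1 spleen, 10.51 and 10.40 in GFP node, and 9.60 and 9.64 in Vav1 node. It rose by 0.82 (SE 0.13, adjusted p = 0.0018) in the spleen, a fold of 1.77, and fell in the node with -0.83 (SE 0.15, adjusted p = 0.0032), a fold of 1.78. The Vav1 values of both tissues overlapped each other and neither GFP group. Sdha, the flavin subunit that oxidises succinate, measured 8.04 and 8.05 in GFP spleen, 8.53, 8.35, 8.19 and 8.29 in Vav1 spleen, 8.89 and 8.92 in GFP node, and 8.37 and 8.27 in Vav1 node. It fell in the node with -0.59 (SE 0.14, adjusted p = 0.016), and the spleen change of 0.30 (SE 0.12, adjusted p = 0.091) did not pass.

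Sdhc and Sdhd anchor the complex in the membrane. Sdhc measured 7.41 and 7.51 in GFP spleen, 7.97, 7.94, 7.82 and 8.14 in Vav1 spleen, 8.47 and 8.49 in GFP node, and 8.22 and 7.89 in Vav1 node. Sdhd measured 8.18 and 8.36 in GFP spleen, 9.39, 9.39, 8.75 and 9.13 in Vav1 spleen, 9.45 and 9.58 in GFP node, and 9.39 and 9.14 in Vav1 node. Both rose in the spleen, Sdhc by 0.50 (SE 0.14, adjusted p = 0.022) and Sdhd by 0.90 (SE 0.18, adjusted p = 0.0061), and neither passed in the node, with -0.43 (SE 0.16, adjusted p = 0.087) and -0.25 (SE 0.21, adjusted p = 0.46). Array values of the constructs did not overlap in either tissue for both genes.

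In complex III, 3 of 9 genes rose in the spleen and 2 fell in the node. Uqcrc1, a core protein, measured 7.89 and 8.06 in GFP spleen, 8.89, 8.99, 8.88 and 8.67 in Vav1 spleen, 9.64 and 9.67 in GFP node, and 8.74 and 8.85 in Vav1 node. It rose by 0.88 (SE 0.12, adjusted p = 0.0011) in the spleen and fell in the node with -0.86 (SE 0.14, adjusted p = 0.0021), the second largest fall there, and its interaction was -1.73 (SE 0.19, adjusted p = 0.00056). Uqcrc2, the other core protein, measured 8.14 and 8.17 in GFP spleen, 8.44, 8.49, 8.34 and 8.40 in Vav1 spleen, 8.79 and 8.63 in GFP node, and 8.32 and 8.56 in Vav1 node. It passed in neither tissue, with 0.26 (SE 0.12, adjusted p = 0.12) and -0.27 (SE 0.14, adjusted p = 0.21), although the arrays did not overlap. Whether Uqcrc1 and Uqcrc2 differ was not tested.

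Uqcrfs1, the Rieske iron-sulfur protein, measured 8.42 and 8.72 in GFP spleen, 9.48, 9.47, 9.05 and 9.33 in Vav1 spleen, 9.87 and 9.84 in GFP node, and 9.56 and 9.41 in Vav1 node. Cyc1, which carries haem c1 and hands electrons to cytochrome c, measured 7.11 and 6.97 in GFP spleen, 7.75, 7.47, 7.57 and 7.15 in Vav1 spleen, 7.75 and 7.82 in GFP node, and 7.41 and 7.50 in Vav1 node. Uqcrfs1 rose in the spleen with 0.76 (SE 0.15, adjusted p = 0.0049) and not in the node, -0.37 (SE 0.17, adjusted p = 0.17), and Cyc1 passed in neither, 0.45 (SE 0.16, adjusted p = 0.062) and -0.33 (SE 0.18, adjusted p = 0.26). Uqcr11, a small subunit, measured 6.81 and 6.27 in GFP spleen, 7.18, 6.68, 7.12 and 6.73 in Vav1 spleen, 7.56 and 7.52 in GFP node, and 6.92 and 6.67 in Vav1 node. It fell in the node with -0.74 (SE 0.23, adjusted p = 0.046) and overlapped between constructs in the spleen. Of the other small subunits, Uqcrh rose in the spleen by 0.48. Uqcrq, Uqcrb and Uqcr10 passed in neither tissue, and Uqcrq, whose GFP spleen arrays are the lowest and the highest of the 10, did not pass in any comparison.

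Genes downstream and around the 3 complexes were counted from lists. Ubiquitous nuclear subunits of complex IV, cytochrome c oxidase, rose in 10 of 10 cases in the spleen and fell in 4 of 10 in the node, with the interaction past the threshold for all 10. Cox6a1 differed by 0.63 (SE 0.11, adjusted p = 0.0026) in spleen and -0.79 (SE 0.12, adjusted p = 0.0015) in node, and Cox5a by 1.09 (SE 0.16, adjusted p = 0.0013) and -0.25 (SE 0.18, adjusted p = 0.4). Among tissue-restricted isoforms of complex IV, Cox8b and Cox7a1, known from brown fat and muscle, fell in the node with -3.77 (SE 0.18, adjusted p = 2.6e-06) and -2.32 (SE 0.19, adjusted p = 3.6e-05).

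ATP synthase (complex V) genes rose in 13 of 15 cases in the spleen, and in the node 1 rose and 2 fell. Atp5g1, a gene for the membrane ring, rose in both tissues, with 1.15 (SE 0.14, adjusted p = 0.00052) and 0.86 (SE 0.16, adjusted p = 0.0036). Atp5d, of the catalytic part, differed by 0.94 (SE 0.16, adjusted p = 0.0027) and -0.64 (SE 0.18, adjusted p = 0.035). In the citric acid cycle list, which includes pyruvate dehydrogenase, 5 of 15 genes rose in the spleen and 9 of 15 fell in the node. Idh3a, of NAD-dependent isocitrate dehydrogenase, differed by 1.04 (SE 0.16, adjusted p = 0.0019) and -0.90 (SE 0.19, adjusted p = 0.0087), and Cs, citrate synthase, by 0.63 (SE 0.12, adjusted p = 0.0045) and -0.62 (SE 0.14, adjusted p = 0.011).

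Of 23 assembly factors of complexes I to III that were tested, 5 rose and 1 fell in the spleen, and 1 fell in the node. Lyrm7, which helps insert the Rieske protein into complex III, fell in both tissues, with -1.60 (SE 0.22, adjusted p = 0.0012) and -1.38 (SE 0.26, adjusted p = 0.0047). Uqcc2, a complex III factor, rose in the spleen with 1.10 (SE 0.20, adjusted p = 0.0036), as did Ndufaf1, a complex I factor, with 0.96 (SE 0.18, adjusted p = 0.0043). Of 11 regulators of mitochondrial biogenesis, 2 fell in the spleen, and 1 rose and 1 fell in the node. Ppargc1a, the coactivator PGC-1alpha, fell in both, with -0.77 (SE 0.18, adjusted p = 0.011) and -1.23 (SE 0.21, adjusted p = 0.0025). Nrf1, a transcription factor of respiratory genes, differed by 0.06 (SE 0.15, adjusted p = 0.78) in spleen and 0.57 (SE 0.18, adjusted p = 0.048) in node.

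Promoter sequence was available for 42 of the 51 genes, from 250 bases before to 50 bases after the start (RefSeq, GRCm38.p6). Genes for respiratory subunits are known targets of NRF1, which binds a GC-rich palindrome, and of ETS factors such as GABP. The NRF1 motif with any base in the middle of its palindrome, searched on both strands, was present for 10 of 42 genes (23.8%), beside 5.19% of 27025 genes with a promoter of the same length. The exact palindrome, a subset of the former, was present for 2 of 42 (4.76%) beside 1.07%. The 27025 genes were not limited to those tested on the arrays, whereas all 42 were tested. The ETS letters CCGGAAG, also on both strands, were present for 8 of 42 (19.0%) beside 9.93%. The stretches printed next are of genes that passed the interaction and show where the matches lie in 6 genes of complexes I, II and III, each 5' to 3' on the strand of the gene, with the match in capitals; a match is a description, and binding was not measured here.
Ndufa11, chr17:56717677-56717736 (plus strand): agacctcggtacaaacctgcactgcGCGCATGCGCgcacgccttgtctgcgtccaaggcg
Ndufs5, chr4:123718250-123718309 (minus strand): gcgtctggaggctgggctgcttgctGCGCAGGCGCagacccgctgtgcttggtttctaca
Sdhd, chr9:50603894-50603953 (minus strand): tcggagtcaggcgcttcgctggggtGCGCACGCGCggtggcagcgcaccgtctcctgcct
Sdha, chr13:74350261-74350320 (minus strand): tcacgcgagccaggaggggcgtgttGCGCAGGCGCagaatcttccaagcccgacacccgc
Ndufb4, chr16:37654413-37654472 (minus strand): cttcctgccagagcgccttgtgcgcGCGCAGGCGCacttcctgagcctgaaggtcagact
Uqcr11, chr10:80406856-80406912 (minus strand): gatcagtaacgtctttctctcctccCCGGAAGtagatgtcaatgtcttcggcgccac
The first 5 hold the NRF1 motif and the last holds the ETS letters. Ndufa11 holds the exact palindrome, and its match starts at position -60 from the gene's start. Sdha holds the NRF1 motif at 3 places and Ndufb4 at 3.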

How the data were processed

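Total RNA was measured on 10 arrays in 4 groups, and the values used are the log2 values deposited by the authors, which per the submitters' processing notes came from RMA in R 3.6.3. RMA corrects background, brings all arrays to a common distribution and summarises probes, so a shift common to all genes would not be seen. The genome build and annotation version are not given in the sources used here. Of 29129 probe sets, 19572 had 1 gene symbol, and 9557 had none listed and stayed out of the tests. The probe set with the highest mean stood for each gene, which gave 19505 genes. Genes above the 40th percentile of all probe sets of an array, on 2 arrays or more, entered the tests; these were 13393. A group whose mean lies below that percentile is called near background.

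Models of the 4 groups were fitted in R 4.3.3 with limma 3.58.1 (statmod 1.5.0 for the block; eBayes with variance trend, 6 residual degrees of freedom), and p-values were adjusted by Benjamini-Hochberg over all genes tested, with 0.05 as the threshold. The tissue and interaction contrasts had the animal as a random block (correlation -0.11), so their estimates can differ slightly from differences of group means. Changes are log2 differences, oncogenic Vav1 minus GFP or node minus spleen, with standard errors (SE). Because some groups hold 2 arrays, the spread is pooled over all groups. The fit was tested on simulated data.

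Alternatives changed the low-value filter, the normalization, the variance trend, weights of arrays, how probe sets were combined, the intronic control level, replicate and animal blocks, the arrays fitted, a fold threshold and single arrays left out. The members and lists were chosen with earlier results of these data known. Genes named with every array value were the core, Sdh, Uqcrc, Cyc1, Uqcrfs1, Ndufa4, Ndufa4l2 and Ndufab1 genes, those past the interaction threshold, and the 5 largest changes per direction and comparison; from the other lists, up to 4 genes per comparison with the smallest p, and Ucp1.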

Additional observations from a re-analysis of the deposited data

Results flagged for a closer look

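For 2 genes, 1 of the 4 Vav1 spleen arrays lay far from the rest by Dixon's test. Ndufa11 was lowest on the fourth array, at 7.89, and Ndufs1 was highest on the second, at 8.54. Of 51 genes tested in this way 2 passed, and chance alone passes about 1 in 20.

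The effect of the construct differed between lymph node and spleen for 36 genes, by limma's interaction test with the animal as a random block and adjusted p under 0.05. The values, each the log2 effect in the node minus that in the spleen, were Ndufs3 -0.97, Ndufs7 -1.43, Ndufs8 -0.91, Ndufv1 -1.06 and Ndufv2 -1.63 for the core of complex I. For the Ndufa genes they were Ndufa1 -1.96, Ndufa10 -1.74, Ndufa11 -1.23, Ndufa12 -1.10, Ndufa13 -0.82, Ndufa3 -0.76, Ndufa4 -1.07, Ndufa8 -1.35, Ndufa9 -1.49 and Ndufab1 -1.43. For the Ndufb genes they were Ndufb10 -1.55, Ndufb3 -1.03, Ndufb4 -0.96, Ndufb4b -1.16, Ndufb5 -1.44, Ndufb6 -1.72, Ndufb8 -0.73 and Ndufb9 -1.90. For the other accessory subunits of complex I they were Ndufc1 -1.87, Ndufc2 -1.11, Ndufs4 -1.00, Ndufs5 -1.15, Ndufs6 -0.82 and Ndufv3 -1.09. In complex II they were Sdha -0.89, Sdhb -1.65, Sdhc -0.94 and Sdhd -1.15, and in complex III Uqcr11 -1.15, Uqcrc1 -1.73 and Uqcrfs1 -1.13. All 36 are negative. The GFP node arrays also carry fat transcripts, so fat content and the construct cannot be told apart in these differences.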

How the results depend on the processing

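Of the 51 genes, 32 changed in spleen, 26 in node, 46 between the GFP tissues, 0 between the Vav1 tissues and 36 in the interaction, and no called gene changed sign under any alternative run. In spleen 9 passed with the intronic control median as a covariate; the median change moved from 0.56 to 0.49 there, to 0.39 with quantile normalization and to 0.64 with a replicate block. In node 6 passed with array weights and 0 with the compared groups' arrays alone, a fit with fewer arrays. The interaction passed for 22 with the intronic covariate. Leaving out each array in turn gave 15 to 40 in spleen (median change 0.48 to 0.60), 6 to 32 in node, 28 to 48 between GFP tissues, 0 to 6 between Vav1 tissues and 15 to 44 in the interaction. The replicate numbers of the titles do not pair the samples, since equal numbers carry different animals. With them as a replicate block the counts were 29, 21, 46, 0 and 28 of the 51 genes. That block gave 2674, 2128, 2015, 0 and 834 of all 13393 genes tested, in the same order. Over all genes, the count in spleen was 3596, but 916 with the intronic covariate, 2379 with a fold of 1.5 required as well, 5849 without both ONCO3 arrays and 1089 to 5520 without single arrays. In node it was 2500, but 1264 with array weights, 433 with the node arrays alone and 1040 to 4650 without single arrays. Between GFP tissues it was 2144, but 3879 with array weights, 4705 without ONCO3 and 863 to 4280 without single arrays. Between Vav1 tissues it was 5, but 13 unfiltered, 94 with the intronic covariate, 0 with the replicate block, 9 without the animal block, 3 with the compared arrays alone, 41 without ONCO3 and 3 to 3812 without single arrays. For the interaction it was 1077, but 2726 without ONCO3 and 384 to 4201 without single arrays. The cause of these shifts was not tested. For the GFP tissues alone the animal block's correlation could not be estimated, so that alternative was not run, and the interaction already uses all groups. With 2 arrays in 3 of the 4 groups, the number of arrays limits the precision.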

Other observations

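Mitochondrial ribosome genes, which encode the proteins that translate the mitochondrial subunits of the same complexes, rose in 34 of 76 cases in the spleen and fell in 0. In the node 2 rose and 0 fell, and 4 of 76 passed the interaction. The median change was 0.41 in spleen and 0.02 in node. Mrpl27, of the large subunit, differed by 1.07 (SE 0.12, adjusted p = 0.00049) in spleen and -0.35 (SE 0.14, adjusted p = 0.12) in node, and Mrpl57 rose in both tissues, by 0.70 (SE 0.12, adjusted p = 0.0032) and 0.55 (SE 0.14, adjusted p = 0.022).

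Of 7 electron carriers and other ubiquinone-reducing enzymes, 3 rose in the spleen and 4 fell in the node. Cycs, cytochrome c, differed by 0.90 (SE 0.14, adjusted p = 0.0016) in spleen and -0.19 (SE 0.16, adjusted p = 0.45) in node. Etfa and Etfdh, which carry electrons from fatty acid oxidation to ubiquinone, rose in the spleen, by 0.66 (SE 0.14, adjusted p = 0.0066) and 0.44 (SE 0.13, adjusted p = 0.03), and fell in the node, with -1.03 (SE 0.16, adjusted p = 0.0014) and -1.04 (SE 0.15, adjusted p = 0.001). Gpd2, the mitochondrial glycerol 3-phosphate dehydrogenase, fell in the node with -1.23 (SE 0.20, adjusted p = 0.0024), and differed by -0.33 (SE 0.18, adjusted p = 0.19) in the spleen without passing.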
